A study of Mus musculus with 6 samples.

Results

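Otop1, Kcne4, Kcnma1, Trpv2, Trpv4, Trpm7, Piezo1 and Lrrc8a encode proton, potassium, cation and anion channels or their subunits. These 8 ion channel genes, of 22180 genes measured, were examined in mouse brown adipocytes with and without a knock-down of the enzyme Aspa. They were chosen by the log2 signals of these same arrays, since Otop1 and Kcne4 differed between Aspa knock-down and control cells, so the differences of all 8 between those groups are given as a description, with no p-value. Each gene is represented by the array row that names it alone, and by the row of highest mean signal where a gene had several, which applied to Kcnma1 and Trpv2. All 8 genes had a row, and 10 rows named a member alone.

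The cells were iBACs, an immortalized mouse line of brown adipogenic cells that forms brown adipocytes in culture. Aspa knock-down cells (siAspa, 3 arrays) carried lentiviral particles with a single shRNA design against Aspa, the aspartoacylase that splits N-acetylaspartate into acetate and aspartate. Control cells (ntc, 3 arrays) carried particles with a non-targeting construct. Both lines were selected with G418, grown to confluence and induced with IBMX, dexamethasone, insulin, T3 and indomethacin. From day 2 both were kept in insulin and T3 alone, and both were harvested on day 7. The 3 arrays of a group came from 3 passages of the cells, and the labels do not say whether these go back to separate infections, so the spread within a group may be that of 1 selected line. Values are log2 signals after RMA, which corrects the background, equalizes the arrays and merges the probes of a set, so that a difference of 1 is a 2-fold difference. Aspa itself was at 7.02, 6.97 and 7.44 in siAspa, against 9.07, 8.81 and 8.59 in ntc (limma, log2 fold change -1.68, adjusted p = 0.034). Array medians ranged from 5.78 to 5.85.

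Ion channels let ions cross membranes down their gradients, and they set the membrane voltage, the calcium level and the volume and pH of a cell. In brown adipocytes, noradrenaline changes the membrane voltage and raises free calcium while it starts lipolysis and heat production. Otopetrin 1, the Otop1 product, is a channel that conducts protons into cells in acid surroundings and is abundant in brown fat. KCNE4, the Kcne4 product, forms no pore, but binds voltage-gated potassium channels and dampens their current.

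The promoters of the 2 genes are shown because these are the members whose signals differed most between the groups, in opposite directions. Each sequence runs from 250 bases before to 50 after the annotated start, is taken from RefSeq on mouse assembly GRCm38.p6 and reads 5′ to 3′ on the strand of the gene. Capitals mark the GC box GGGCGG, on either strand.
Otop1 (chr5:38277154-38277453, plus strand): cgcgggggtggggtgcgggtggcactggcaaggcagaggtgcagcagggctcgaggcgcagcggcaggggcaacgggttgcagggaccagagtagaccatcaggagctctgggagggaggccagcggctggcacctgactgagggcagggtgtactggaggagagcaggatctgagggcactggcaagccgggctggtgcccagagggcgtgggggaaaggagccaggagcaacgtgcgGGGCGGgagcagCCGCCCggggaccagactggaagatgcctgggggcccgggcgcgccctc
Kcne4 (chr1:78816661-78816960, plus strand): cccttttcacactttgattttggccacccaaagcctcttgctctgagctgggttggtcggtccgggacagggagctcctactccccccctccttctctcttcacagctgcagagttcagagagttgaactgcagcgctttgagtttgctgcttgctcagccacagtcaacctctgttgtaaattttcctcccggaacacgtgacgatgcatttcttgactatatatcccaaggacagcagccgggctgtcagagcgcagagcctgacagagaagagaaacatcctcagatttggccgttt
The Otop1 promoter was rich in G and C (71.7%, with 18 CpG), more so than 92.6% of the 32851 promoters in the table. The Kcne4 promoter had 52.7% G and C and 9 CpG, and its G and C content was above that of 49.0% of all promoters. Otop1 held a GC box that begins 11 bases before the start, and an inverted one that begins 1 base after it, and these overlapped no other motif searched. Kcne4 held no match. The GC box was in 35.7% of all promoters. The other motifs searched on both strands were the cyclic AMP response element TGACGTCA (in 1.79% of promoters), the nuclear receptor site AGGTCA (16.3%), the CCAAT box (37.4%) and the TATA box TATAAA (13.6%), and neither promoter held their letters.

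Otop1 was lower in Aspa knock-down cells. Its log2 signal was 8.29, 8.33 and 8.47 in siAspa, against 9.55, 9.27 and 9.61 in ntc. Every siAspa array lay below every ntc array, with 0.79 between the nearest arrays of the groups. The means were 8.36 ± 0.10 in siAspa and 9.47 ± 0.18 in ntc (SD, n = 3 each), and the log2 fold change was -1.11 (SE 0.11, 95% interval -1.38 to -0.84), which is a 2.16-fold lower signal in siAspa. Of all 22180 genes, 13 had a log2 fold change at or below that of Otop1, Otop1 included. Its 2 paralogs differed little between the groups. Otop2 was at 6.59, 6.58 and 6.50 in siAspa, against 6.54, 6.51 and 6.62 in ntc (interval of the log2 difference -0.18 to 0.18). Otop3 was dim, with a mean signal below the median of all rows, and its groups overlapped at 5.70 in siAspa and 5.77 in ntc (interval -0.35 to 0.22).

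Other proteins that move protons across the plasma membrane were set beside Otop1. Hvcn1, the voltage-gated proton channel, averaged 8.89 in siAspa and 8.93 in ntc, and the groups overlapped. Slc16a3, a transporter that exports lactate together with a proton, was at 9.46, 9.46 and 9.63 in siAspa, against 8.84, 8.72 and 8.82 in ntc. This was the single call among the channel and transporter genes outside the 8 (limma, log2 fold change 0.72, SE 0.09, adjusted p = 0.045). It was lost when array medians were subtracted (adjusted p = 0.057), and it was lost with any single array left out. Its relative Slc16a1 averaged 10.85 in siAspa and 11.05 in ntc, with overlap. Slc4a4, a sodium bicarbonate cotransporter, averaged 8.17 in siAspa and 8.92 in ntc without overlap (limma, log2 fold change -0.75, adjusted p = 0.143).

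Kcne4 was higher in Aspa knock-down cells. Its log2 signal was 9.24, 9.26 and 9.11 in siAspa, against 8.15, 8.27 and 8.28 in ntc. The lowest siAspa array stood 0.83 above the highest ntc array, and the arrays spanned 0.14 within siAspa and 0.13 within ntc. The means were 9.20 ± 0.08 in siAspa and 8.23 ± 0.07 in ntc (SD, n = 3 each). The log2 fold change was 0.97 (SE 0.08, 95% interval 0.77 to 1.17), a 1.96-fold higher signal in siAspa, and 26 of 22180 genes, Kcne4 included, had a value at or above it. The other 4 KCNE genes overlapped between the groups, with log2 fold changes between -0.09 and 0.15. Kcne1, Kcne2 and Kcne3 were dimmer than the median row, where background may compress fold changes. Kcne5 averaged 7.12 in siAspa and 7.05 in ntc (interval of the difference -0.22 to 0.36).

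**Figure D1:**
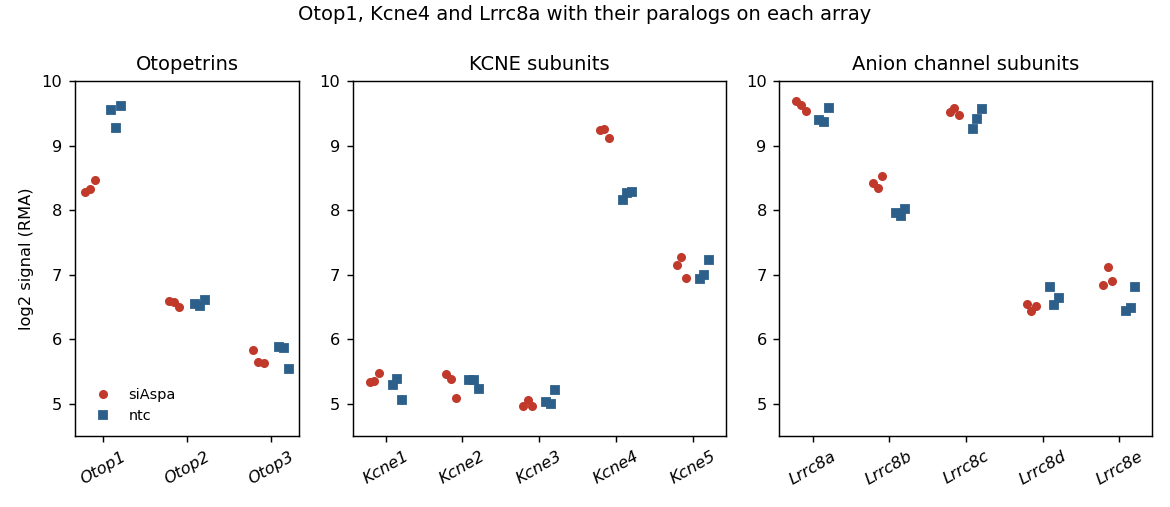
Log2 signal (RMA, vertical axis) of Otop1, Kcne4, Lrrc8a and their paralogs on each of 3 siAspa arrays (red circles) and 3 ntc arrays (blue squares). The groups stand apart for Otop1, Kcne4, Lrrc8b and Lrrc8e and overlap for the other paralogs. Heights are to be compared within a gene only, since each gene has its own probes.

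Kcna1, Kcna3 and Kcnq1, genes of pores that KCNE4 is known to bind, were dim and differed little between the groups. Background may compress a difference in such dim rows. Kcna1 and Kcna3, whose channels KCNE4 inhibits in expression studies, had log2 fold changes of -0.02 (interval -0.25 to 0.22) and -0.01 (interval -0.26 to 0.25). Kcnq1, another partner, had 0.06 (interval -0.32 to 0.44). Kcna4, a rapidly inactivating channel of the same family as Kcna1, was bright and was at 10.49, 10.33 and 10.83 in siAspa, against 11.44, 11.20 and 11.38 in ntc. These groups did not overlap, but Kcna4 did not pass the test (limma, log2 fold change -0.79, SE 0.14, adjusted p = 0.106). It passed with only rows above the median signal (adjusted p = 0.032), with limma's trended and robust variance prior (0.046) and with single-gene rows only (0.021). Kcna2 was dim and averaged 5.65 in siAspa and 5.18 in ntc (limma, log2 fold change 0.47, adjusted p = 0.168). In the main comparison, none of the 75 measured potassium channel genes outside the 8 passed in either direction.

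The other 6 members stayed close to their ntc levels, as the plot of the 8 genes by array shows. Their log2 fold changes lay between 0.07 and 0.17 and were all positive, as were those of 54.5% of all genes. Their 95% intervals reached at most from -0.15 to 0.39, which leaves room for a siAspa signal between 0.90 and 1.31 times that of ntc. These bounds hold for the array signal. Kcnma1 (mean 6.20), Trpv2 (6.15) and Trpv4 (5.68) lay near the median row signal of 5.81, where background may compress a difference in RNA. The median over the 8 members was 0.09, and the median over all genes was 0.02.

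**Figure D2:**
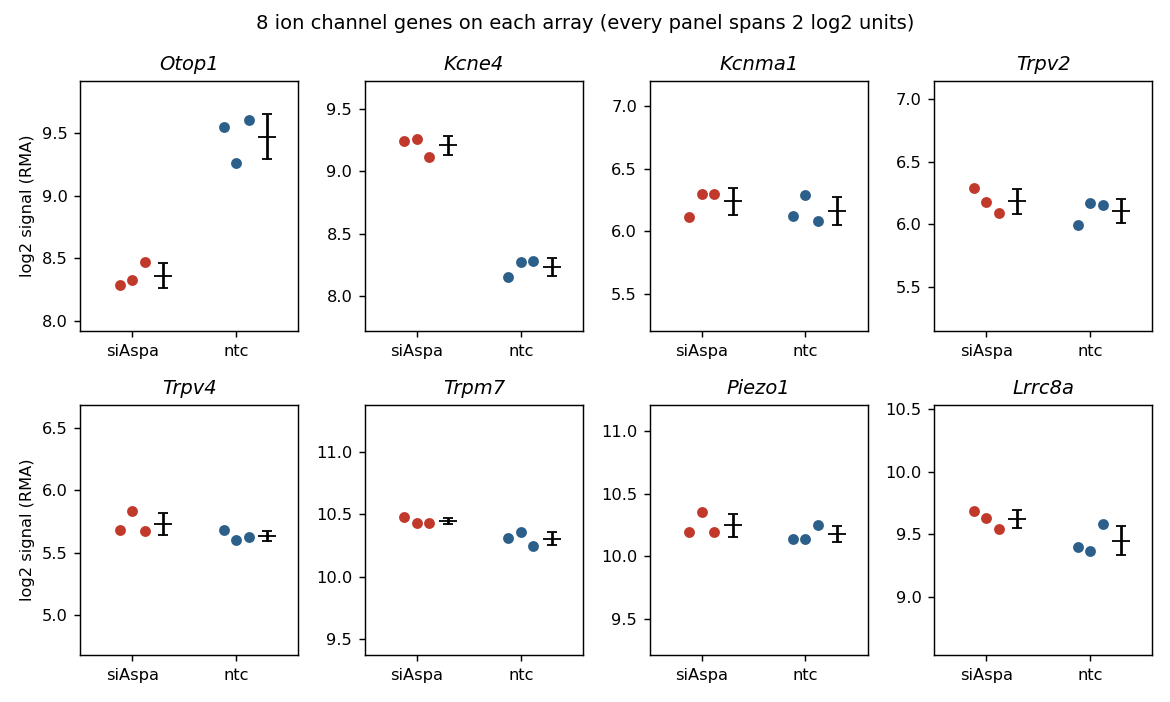
Log2 signal (RMA) of the 8 genes on each array, siAspa on the left and ntc on the right of each panel. Points are single arrays, and the bars give the mean ± SD of 3 arrays. Every panel spans 2 log2 units, so that distances can be compared between panels. Otop1 averaged 8.36 in siAspa and 9.47 in ntc, Kcne4 averaged 9.20 in siAspa and 8.23 in ntc, and the means of the other 6 genes differed by 0.17 or less.

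Kcnma1 encodes the pore of the BK channel, a potassium channel of large conductance that opens with calcium and voltage. It was at 6.12, 6.30 and 6.30 in siAspa, against 6.12, 6.29 and 6.08 in ntc. The groups overlapped, and the log2 fold change was 0.08 (interval -0.15 to 0.30). A second Kcnma1 row, of lower signal, had 5.63, 5.61 and 5.76 in siAspa, against 5.84, 5.55 and 5.83 in ntc (log2 fold change -0.07, interval -0.32 to 0.18). The rows thus differed in sign, and neither separated the groups. The 7 measured BK accessory subunits had log2 fold changes between 0.03 and 0.20, with 0.05 for Kcnmb1, 0.12 for Kcnmb2 and 0.11 for Kcnmb4. The highest was that of Lrrc55 (interval -0.14 to 0.54). Among these subunits only Kcnmb2 did not overlap (5.29 in siAspa and 5.18 in ntc, limma adjusted p = 0.628).

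Trpv2 and Trpv4 encode calcium-permeable TRP channels of the vanilloid group, which respond to stretch, swelling or heat. TRPV2 is known in mice to support heat production in brown fat, and TRPV4 is known in mouse adipocytes to repress thermogenic genes. Trpv2 was at 6.289, 6.176 and 6.088 in siAspa, against 5.995, 6.171 and 6.153 in ntc (log2 fold change 0.08, interval -0.14 to 0.29). Its second row had 6.17, 5.73 and 5.79 in siAspa, against 5.72, 5.86 and 5.67 in ntc (interval -0.17 to 0.46), where 1 siAspa array lay above the rest. Trpv4 was at 5.69, 5.83 and 5.67 in siAspa, against 5.68, 5.60 and 5.63 in ntc (log2 fold change 0.09, interval -0.10 to 0.28). Trpv4 was the only member whose mean signal lay below the median of all rows, so a difference there may be compressed. The groups overlapped for every row of both genes.

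Trpm7 encodes a magnesium-permeable channel that is joined to a kinase. It was at 10.48, 10.43 and 10.43 in siAspa, against 10.31, 10.36 and 10.25 in ntc. The groups did not overlap, yet only 0.07 lay between the nearest arrays, and the log2 fold change was 0.14 (SE 0.07, interval -0.03 to 0.31). Trpm7 also had the smallest replicate spread of the 8 members, with an SD of 0.03 in siAspa and 0.05 in ntc. Trpm4, a calcium-activated sodium and potassium channel of the same family, averaged 7.39 in siAspa and 7.15 in ntc without overlap (limma, log2 fold change 0.24, adjusted p = 0.370). None of the 23 measured TRP genes outside the 8 passed in the main comparison.

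Piezo1, a channel that opens when the membrane is stretched, was at 10.20, 10.35 and 10.19 in siAspa, against 10.14, 10.14 and 10.25 in ntc. The groups overlapped, and the log2 fold change was 0.07 (interval -0.12 to 0.27). Piezo2, its paralog, averaged 6.21 in siAspa and 6.37 in ntc, also with overlap (interval -0.43 to 0.13).

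Lrrc8a encodes the subunit that every volume-regulated anion channel needs, and the other LRRC8 proteins join it and shape what the channel conducts. Lrrc8a was at 9.69, 9.63 and 9.54 in siAspa, against 9.40, 9.37 and 9.58 in ntc (log2 fold change 0.17, interval -0.04 to 0.39). The overlap came from a single ntc array, at 9.58, which lay above the lowest siAspa array. A further row shared with Phyhd1 averaged 7.15 in siAspa and 7.16 in ntc, and it was not used because it names both genes. Lrrc8b was at 8.42, 8.34 and 8.54 in siAspa, against 7.95, 7.91 and 8.02 in ntc. This difference did not pass the test (limma, log2 fold change 0.47, SE 0.08, adjusted p = 0.102), but it passed with only rows above the median signal (adjusted p = 0.027), with the trended and robust prior (0.042) and with single-gene rows only (0.024). Lrrc8e averaged 6.95 in siAspa and 6.58 in ntc without overlap (limma, adjusted p = 0.333). Lrrc8c had a log2 fold change of 0.12 and Lrrc8d of -0.17, both with overlap.

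The counts over the 8 members are read beside those over all genes. In the limma fit, Otop1 passed as lower at an adjusted p under 0.05, as did 0.0992% of the 22180 genes, and Kcne4 passed as higher, as did 0.189%. Every siAspa array lay below every ntc array for 1 of 8 members and for 9.99% of all genes, and above for 2 of 8 members and for 12.6% of all genes. Since the comparison that gave the calls also led to the choice of these genes, nothing is read from the counts. Neither call was kept when any single array was left out, when at most 1 row in either direction passed in the whole table. Aspa and Ucp1 then did not pass either. The log2 fold change of Otop1 then lay between -1.22 and -1.04 and that of Kcne4 between 0.93 and 1.02. Between replicates the members varied about as much as other genes, with a spread within groups of 0.04 to 0.15 against a median of 0.11 over all genes.

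Among 269 channel and ion transporter genes listed in 22 families, 247 were measured. Otop1 had the lowest and Kcne4 the highest log2 fold change of these, and 236 of the other 245 lay within 0.5 of 0. Otop1 and Kcne4 were chosen because they differed in this same comparison, so nothing is read from their ranks. Outside the 8 members 239 genes were measured, of which 0 passed as lower and 1, Slc16a3, as higher in limma. At an unadjusted p under 0.05 in limma, 14 of the 239 were lower and 22 higher, beside 2514 lower and 2292 higher of all 41345 rows. These counts are of unlike kinds, since 16004 of all rows name no gene. When only single-gene rows were fitted, 16 channel genes outside the 8 were lower and 27 higher. Of the 23521 rows in that fit, 1731 were lower and 1961 higher. The groups did not overlap for 9.62% of the 239 in the lower and 15.5% in the higher direction. Over all genes these shares were 9.99% and 12.6%. The median log2 fold change of the 239 was 0.04.

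**Figure D3:**
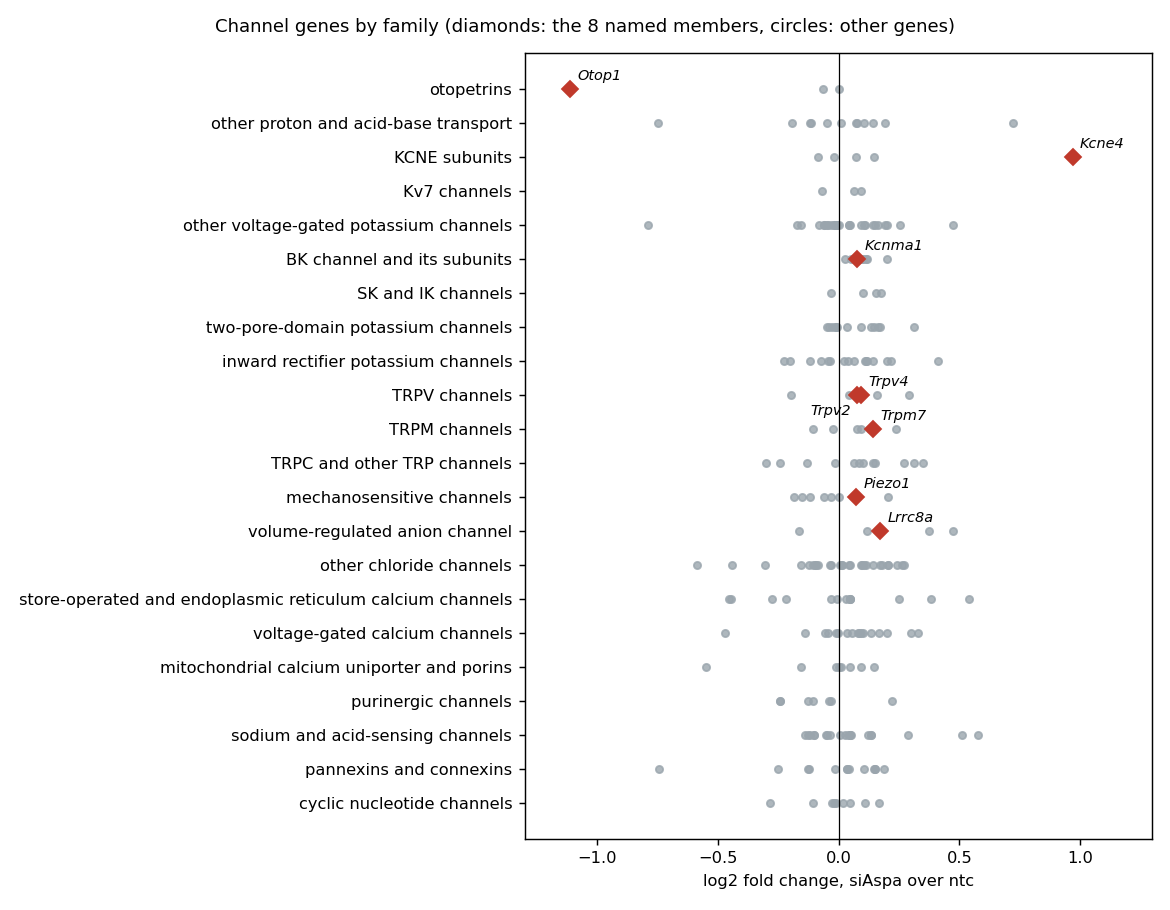
Log2 fold change (siAspa over ntc, horizontal axis) of 247 channel and transporter genes, 1 row a family. Red diamonds are the 8 members and grey circles the other genes. Otop1 stands at -1.11 and Kcne4 at 0.97, while the other genes lie between -0.79 and 0.72. Otop1 and Kcne4 were chosen because they differed in this comparison.

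Several bright genes of other families stood apart between the groups without passing the main comparison. On the lower side, Gja1, which encodes connexin 43, was at 9.12, 9.01 and 8.88 in siAspa, against 9.80, 9.58 and 9.86 in ntc (limma, log2 fold change -0.74, adjusted p = 0.069). Letm1, a protein of the inner mitochondrial membrane that takes part in cation exchange, averaged 9.57 in siAspa and 10.12 in ntc (limma, log2 fold change -0.55, adjusted p = 0.083). Ano1, a calcium-activated chloride channel, had a log2 fold change of -0.58 (limma, adjusted p = 0.185), Clic5 of -0.44 (adjusted p = 0.299) and Cacnb4, an accessory subunit of calcium channels, of -0.47 (adjusted p = 0.122). Gja1 and Letm1 also passed in the same 3 other settings as Kcna4 and Lrrc8b.

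Genes of the inositol trisphosphate receptor, which releases calcium from the endoplasmic reticulum, differed in direction without passing the test. Itpr3 averaged 8.23 in siAspa and 7.69 in ntc (limma, log2 fold change 0.54, adjusted p = 0.137), and Itpr2 averaged 8.18 in siAspa and 8.64 in ntc (limma, log2 fold change -0.45, adjusted p = 0.186). The groups overlapped for neither. Itpr1 had no row that named it alone and was not analysed here. On the higher side, Asic3, an acid-sensing sodium channel, had a log2 fold change of 0.58 (limma, adjusted p = 0.203), Scn2a, which was dim, of 0.51 (adjusted p = 0.073), Kcnj2, also dim, of 0.41 (adjusted p = 0.347) and Kcnk10 of 0.31 (adjusted p = 0.259). Kcnk3, a background potassium channel known from brown fat, had no row of its own and was not analysed here.

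Position along the chromosome had not been used to choose the members. The 2 measured genes that follow Kcne4 on chromosome 1 in the RefSeq order, Scg2 and Ap1s3, were both higher in Aspa knock-down cells. Scg2 lies 614 kb and Ap1s3 787 kb from Kcne4. Scg2, the granule protein secretogranin II, was at 9.78, 9.80 and 9.47 in siAspa, against 7.02, 6.69 and 6.60 in ntc (limma, log2 fold change 2.91, SE 0.14, adjusted p = 0.010). Ap1s3, a subunit of a clathrin adaptor, was at 8.78, 8.90 and 8.69 in siAspa, against 7.24, 7.63 and 7.20 in ntc (limma, log2 fold change 1.43, SE 0.13, adjusted p = 0.032). For Kcne4, Scg2 and Ap1s3 alike, every siAspa array stood above every ntc array. The measured genes next to these 3 differed little. Beyond Ap1s3, Wdfy1, Fam124b and Cul3 had log2 fold changes between -0.02 and 0.01, and Mogat1, on the other side of Kcne4, was at 6.46 in siAspa and 6.54 in ntc. RefSeq lists no protein-coding gene between Kcne4 and Scg2 or between Scg2 and Ap1s3. It lists 2 between Mogat1 and Kcne4 and 2 between Wdfy1 and Fam124b, and these had no row of their own. Pax3, the fifth measured gene before Kcne4, averaged 9.18 in siAspa and 8.77 in ntc without overlap (limma, log2 fold change 0.40, adjusted p = 0.119), and it passed with only rows above the median signal (adjusted p = 0.035), with the trended and robust prior (0.043) and with single-gene rows only (0.033). The call of Ap1s3 was lost with any single array left out (log2 fold change 1.35 to 1.57), and that of Scg2 was kept in 2 of these 6 fits, without siAspa replicate 3 and without ntc replicate 1 (2.83 to 3.04 over all 6). Whether these genes share a cause was not tested.

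**Figure D4:**
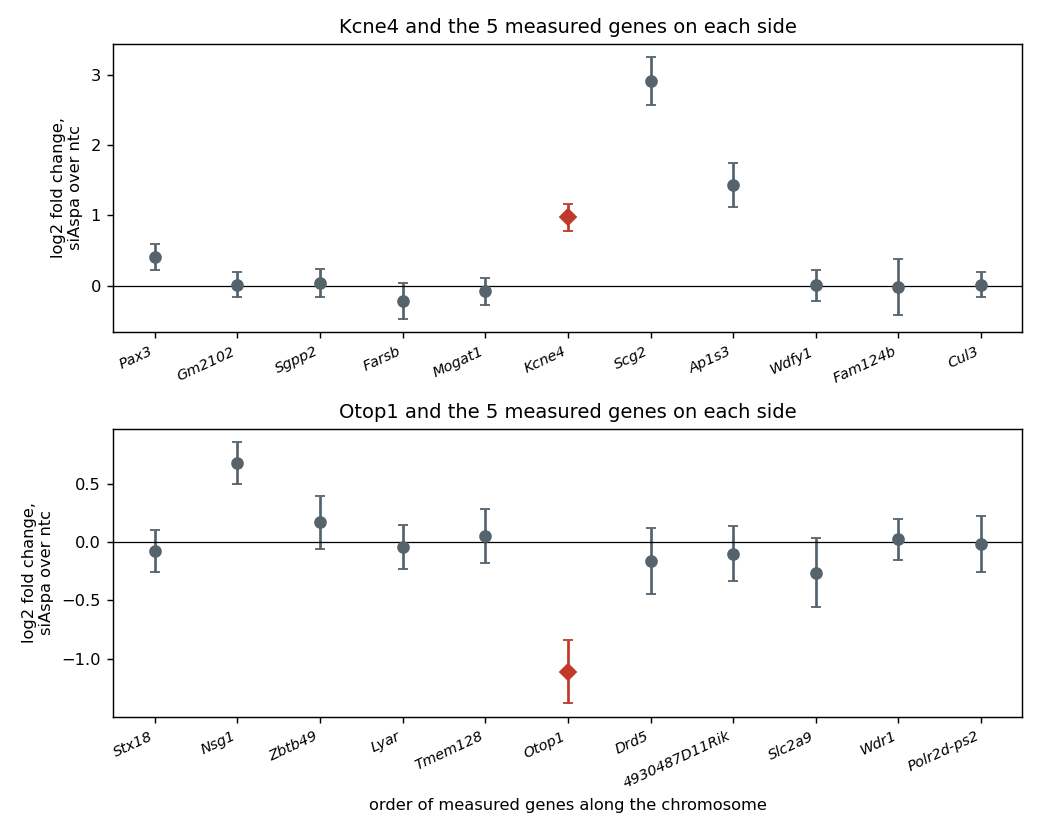
Log2 fold change (siAspa over ntc, vertical axis) of Kcne4 (top) and Otop1 (bottom), drawn as red diamonds, and of the 5 measured genes on each side in chromosome order, with 95% intervals from limma. Scg2 at 2.91 and Ap1s3 at 1.43 stand beside Kcne4, and Nsg1 at 0.68 is the highest neighbour of Otop1. Genes are equally spaced and distances are not drawn.

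Around Otop1, on chromosome 5, no neighbour was called lower. Tmem128 before it averaged 9.16 in siAspa and 9.11 in ntc, and Drd5 after it averaged 6.65 in siAspa and 6.81 in ntc, both with overlap. Nsg1, a neuronal endosome protein and the fourth measured gene before Otop1, ran the other way, at 9.72, 9.65 and 9.58 in siAspa, against 8.94, 9.03 and 8.96 in ntc (limma, log2 fold change 0.68, adjusted p = 0.038). With any single array left out, Nsg1 did not pass (log2 fold change 0.64 to 0.71). No gene among the 10 nearest of each of the other 6 members was called. Their next neighbours were Gm10248 and Dlg5 for Kcnma1, Cenpv and 2410006H16Rik for Trpv2, Fam222a and Gltp for Trpv4, Usp50 and Sppl2a for Trpm7, Ctu2 and Cdt1 for Piezo1 and 1700084E18Rik and Dolk for Lrrc8a. Among these 12 the log2 fold changes lay between -0.18 and 0.24.

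Genes with the most similar values on the 6 arrays were found by the root mean square difference of their log2 deviations from the ntc mean. Nearest to Otop1 were Tspan18, a tetraspanin (0.12), Parm1, a mucin-like membrane protein (0.12), and Serpinb2, an inhibitor of plasminogen activators (0.13). Their log2 fold changes were -1.13, -1.06 and -1.08, and of these Parm1 passed the main comparison (limma, adjusted p = 0.044), which it did not after repeated quantile normalization (adjusted p = 0.054) or with any single array left out (log2 fold change -1.18 to -0.98). Tspan18 and Serpinb2 passed with only rows above the median signal (adjusted p = 0.014 and 0.017), with the trended and robust prior (0.020 and 0.026) and with single-gene rows only (0.0060 and 0.0083). Nearest to Kcne4 were Nceh1, a cholesteryl ester hydrolase (0.04), Mmp2, a matrix metalloproteinase (0.06), and Cyba, a subunit of NADPH oxidase (0.07). Mmp2 was at 12.30, 12.31 and 12.20 in siAspa, against 11.25, 11.22 and 11.27 in ntc (limma, log2 fold change 1.03, adjusted p = 0.023). Nceh1 had a log2 fold change of 0.99 and Cyba of 0.91 (limma, adjusted p = 0.026 for both), and none of the 3 passed with any single array left out (0.95 to 1.04 for Nceh1, 1.01 to 1.06 for Mmp2, 0.89 to 0.96 for Cyba). These likenesses are descriptions over 6 arrays that fall into 2 groups. The search matched the difference between siAspa and ntc itself, so the genes it found differ between the groups by construction. Their adjusted p-values and calls are therefore descriptions too, and nothing is read from them.

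Markers of the cells that the culture could hold are given beside Otop1 and Kcne4. Over all genes, 9.99% were lower in every siAspa array than in any ntc array. Of 9 brown adipocyte markers 8 were, and Dio2 was the exception. Ucp1, the uncoupling protein of brown fat, averaged 10.08 in siAspa and 11.80 in ntc and alone passed the test (limma, log2 fold change -1.72, adjusted p = 0.034). The mean log2 signal over these 9 markers lay between 8.01 and 8.30 in siAspa arrays and between 8.82 and 9.19 in ntc arrays. Of 10 general adipocyte markers, 6 were lower without overlap and 0 were called, and their mean signal was 10.76 to 10.95 in siAspa and 11.08 to 11.15 in ntc. The median log2 fold change was -0.72 for the brown and -0.27 for the general markers, both below 0 as for Otop1. In bulk RNA, fewer cells of a type and less RNA in each cell cannot be told apart.

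Of 7 measured preadipocyte and fibroblast markers, 4 were higher without overlap, as were Kcne4 and 12.6% of all genes. These were Cd34 (log2 fold change 0.38), Col1a1 (0.19), Col3a1 (0.20) and Dpt (0.46). Pdgfra was lower without overlap (-0.27), and 0 of the 7 were called. The mean signal of the 7 was 10.57 to 10.75 in siAspa and 10.48 to 10.61 in ntc. Their median log2 fold change was 0.19, against 0.97 for Kcne4. The mean of 5 endothelial markers was 5.65 to 5.78 in siAspa and 5.52 to 5.57 in ntc, below the median row signal of 5.81. Of these Tek alone was higher without overlap (log2 fold change 0.46). Macrophage markers averaged 5.66 to 5.81 in siAspa and 5.66 to 5.71 in ntc, and of 6 Cd68 alone was higher without overlap (0.34). Muscle and neuron markers overlapped in their mean signal, with 6.17 to 6.42 and 6.52 to 6.58 in siAspa and 6.33 to 6.45 and 6.48 to 6.55 in ntc. Of these Des, a muscle marker, alone was lower without overlap (-0.64), and 0 markers of these 4 cell types were called. The part of these markers in the values of Otop1 and Kcne4 was not tested.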

How the data were processed

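RNA from 3 siAspa and 3 ntc cultures (200 ng each) was hybridized to Affymetrix Mouse Gene 2.0 ST arrays. The authors deposited log2 signals, made by RMA in CarmaWeb through background correction, quantile normalization and summarization. The RMA version and probe set definition are not given in the sources used here. The files carry no detection call, so a dim row is called dim and not absent.

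The table holds 41345 rows. The platform annotation names 1 gene for 23521, several for 1820 and none for 16004. Symbols were updated by gene identifier in a RefSeq table (GRCm38.p6) that matched 23328 single-gene rows. The row of highest mean stood for a gene (22180 genes). Gene order came from the same table, and promoters were matched for Otop1 and Kcne4.

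Groups were compared in limma 3.58.1 (R 4.3.3) with lmFit and eBayes, without block or weights, with two-sided p-values adjusted by Benjamini-Hochberg over all rows and a threshold of 0.05. Intervals are 95% intervals of that fit. An exact permutation test of 3 against 3 cannot go below 0.1, and none was used. The fit was also run on simulated rows, drawn independently of each other, to check the code. Those rows held no effect of line or passage, so the run does not bear on the calls. The 8 genes, the channel, marker and motif lists and the tests were chosen with earlier results of these data known. The p-values measure only the spread between passages. Called channel genes were named, and in some families up to 2 more without overlap. Genes without overlap among purinergic, cyclic nucleotide, SK and IK channels and TRP channels outside the TRPV and TRPM groups were not named. None of these passed the main comparison. Also named were some paralogs and some known partners of the members, the nearest neighbours and called genes among 5 on each side, and the 3 most similar profiles. Slc16a1, Hvcn1, Pax3, Wdfy1, Fam124b and Cul3 were named beside these to place them.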

Additional observations from a re-analysis of the deposited data

How the results depend on the processing

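Of the settings that can change a log2 fold change, none turned the sign for any of the 8 genes, although the mean of both rows gave Kcnma1 0.0032, while counts of calls depended much on the setting. The replicate block, the variance prior and the choice of rows tested leave a log2 fold change as it is by construction. Over all genes and rows, 30 rows were called lower and 48 higher. With the replicate number as a block it was 0 and 0, with rows above the median signal 394 and 253, with limma's trended and robust variance prior 236 and 152, and with single-gene rows only 329 and 251. Leaving out each array in turn gave 0 to 1 row in each direction, while 1960 to 2589 rows were lower and 1633 to 2193 higher at an unadjusted p under 0.05. Of the 8 genes, 1 was called lower and 1 higher, and 0 and 0 were called with the replicate block or without any single array (0 to 0). The 0 channel genes outside the 8 called lower became 5 with rows above the median signal and 5 with single-gene rows only (Gja1, Kcna4, Letm1, Slc4a4 and Cacnb4 in both) and 3 with the robust prior (Gja1, Kcna4 and Letm1). The 1 called higher, Slc16a3, became 3 with rows above the median signal and 4 with single-gene rows only (Lrrc8b and Itpr3 in both, and Scn2a), 2 with the robust prior (with Lrrc8b), 0 with array medians subtracted, 0 with the replicate block and 0 without any single array. The replicate numbers gave no sign of pairing, since siAspa and ntc arrays of the same number deviated with correlations of 0.002, 0.020 and 0.003. The cause of these changes was not tested. Only 3 arrays a group limit the precision, and dim rows such as Trpv4 can show compressed fold changes.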
